A study of Mus musculus with 8 samples.

Results

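Levels of 10 immediate-early genes, Fos, Fosb, Jun, Junb, Egr1, Egr2, Ier2, Ier3, Atf3 and Myc, were taken by symbol from the 31053 genes counted in single cells of SN4741. All 10 were found, and all 10 passed the filter on low counts. SN4741 cells are mouse neural precursors, immortalized from the embryonic substantia nigra with a heat-sensitive SV40 T antigen driven by a tyrosine hydroxylase promoter, and the line is reported to be clonal, though of abnormal chromosome number that varies from cell to cell. All libraries are of this line, labelled wild type, with cells released by trypsin and captured with 10x Genomics 3' V3 chemistry. There were 4 libraries at 37 °C in 10% serum, which permits T antigen activity, and 4 after 48 hours at 39 °C in 0.5% serum, where that activity is described as diminished. Temperature and serum changed together and cannot be told apart. Cells were not measured before their release by trypsin, so what handling did to the levels of these genes was not tested. The labels do not say whether libraries came from separate cultures, so p-values measure the spread between these libraries, which may be technical.

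Immediate-early genes are the genes a cell switches on within minutes of a growth factor, depolarization or stress, without needing new proteins first. Kinases such as ERK and p38 act on factors already bound at the promoter, such as SRF with its ternary complex partners and CREB, and the transcripts decay fast. Most of the products are transcription factors that pass the signal on: Fos and Jun proteins pair into AP-1 dimers, EGR proteins are zinc-finger factors, and Myc pairs with Max.

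The promoters of 7 members were searched in RefSeq windows (GRCm38.p6, the assembly also called mm10) of 300 bases around each transcript start. No window was held for Ier2 and Myc, and Egr1 was left out of the search. The motifs searched on both strands were the CArG box bound by SRF (CC, 6 bases that are each A or T, GG), the cAMP response element TGACGTCA, its core TGACG, the AP-1 site TGANTCA and the EGR site GCGNGGGCG. TGACG is part of TGACGTCA, so a match of the longer motif is also counted for the shorter. TGACG was held by 7 of the 11 windows of the members, against 20.8% of all 32851 windows, and 5 of the 7 members (Fos, Fosb, Junb, Egr2 and Atf3) held it in at least 1 window, against 23.0% of 27025 genes. Several windows of Egr2 overlap and are not independent. Only Egr2 held a CArG box among the 7 members (1.81% of genes), and only Fosb held the EGR site (6.27%). None of the 7 held TGACGTCA (2.03%) or TGANTCA (8.97%). These counts say nothing of the promoters of Egr1, Ier2 and Myc. The windows reached 250 bases before the start and 50 after it. Sites farther out were not searched, so a member without a match here may still hold one. The 250 bases before the start of 3 members that held TGACG are shown, with TGACG on either strand and the CArG box in capitals. These 3 were picked after the results were seen, and members not shown rose as well. Jun and Ier3 held none of the motifs and are not shown. Egr2 is shown by 1 of its windows, and its window at chr10:67535249-67535498 held no motif. A link between the motifs and the levels was not tested.
Fos, chr12:85473640-85473889, plus strand: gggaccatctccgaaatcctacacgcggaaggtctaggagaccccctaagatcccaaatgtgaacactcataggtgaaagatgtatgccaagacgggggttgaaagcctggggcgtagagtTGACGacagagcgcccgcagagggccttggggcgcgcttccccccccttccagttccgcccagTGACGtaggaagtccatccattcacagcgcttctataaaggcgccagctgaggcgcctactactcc
Junb, chr8:84978749-84978998, minus strand: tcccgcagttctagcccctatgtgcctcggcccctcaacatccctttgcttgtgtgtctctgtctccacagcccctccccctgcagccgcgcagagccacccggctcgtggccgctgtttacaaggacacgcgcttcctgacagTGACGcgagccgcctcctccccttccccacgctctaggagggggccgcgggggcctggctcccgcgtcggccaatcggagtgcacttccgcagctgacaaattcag
Egr2, chr10:67537619-67537868, plus strand: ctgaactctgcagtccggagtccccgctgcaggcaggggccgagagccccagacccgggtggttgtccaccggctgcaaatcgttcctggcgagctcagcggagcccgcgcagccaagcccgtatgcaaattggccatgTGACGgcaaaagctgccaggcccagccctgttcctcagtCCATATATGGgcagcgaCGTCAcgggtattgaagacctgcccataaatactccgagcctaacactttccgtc
The Fos window held TGACG at 129 and 66 bases before the start, and the Junb window at 106 bases before it. The Egr2 window held its CArG box 72 bases before the start, between a TGACG on the plus strand at 111 and its reverse complement at 55 bases. These matches are letters in a window and no measurement of binding.

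After the study's limits on cells, 18351 of 19125 deposited cells were kept, 985 to 3494 a library, with 17166686 to 29633818 UMIs (unique molecular identifiers, counts of captured transcripts) a library and a median of 6676 to 16665 UMIs a cell. The highest median was in 39 °C replicate 1 and the lowest in 39 °C replicate 4. At most 5 barcodes were shared between a pair of libraries. By Seurat's phase scores, cells assigned to G1 made up 20.6 to 28.7% of a library at 37 °C and 82.5 to 85.4% at 39 °C, and cells assigned to G2M 34.2 to 37.3% and 2.94 to 5.35%. Of 8 neural precursor markers, Nes, Vim, Sox2, Hes1 and Notch1 were abundant, while Pax6 (3 UMIs in all), Fabp7 (6) and Msi1 (12) were near 0, so the label rests on part of the list. Of markers of other cell types, Tyrobp, Cdh5 and Cldn5 were at 0 UMIs and Snap25 at 1, and the endothelial list summed to at most 1.14 CPM. The immune list, carried by Cd68, summed to 17.0 to 19.8 CPM at 37 °C and 27.9 to 35.6 CPM at 39 °C, the neuron list, carried by Map2 and Tubb3, to 62.8 to 69.5 and 37.5 to 39.2 CPM, and the fibroblast list, carried by Col1a1 and Col1a2, to 1696 to 1734 and 748 to 780 CPM. In sums over cells, fewer cells with a transcript and fewer transcripts per cell cannot be told apart.

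Raw counts were summed over the cells of each library and compared in edgeR's quasi-likelihood test, with Benjamini-Hochberg adjustment over all genes tested, and genes with adjusted p under 0.05 are said to be called. Levels are in CPM, counts scaled to a library total of 1000000 with TMM factors. In all cells, 9 of the 10 members were higher at 39 °C and 1, Myc, was lower. In the same test, 62% of all 15810 genes were called, 31.5% higher and 30.5% lower, so being called was common. The median log2 change (39 °C over 37 °C) was 0.61 over the members and 0.02 over all genes tested, and the median size was 0.69 against 0.42. The study's own limit (log2 change beyond 1.5 in size, adjusted p under 0.01) was passed by 0 members and by 5.83% of all genes. The study set that limit for bulk RNA-seq in DESeq2, and here it was applied to edgeR changes of summed single cells. The libraries of both temperatures did not overlap for 8 of the 10 members, against 56.7% of all genes.

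The AP-1 subunits Fos and Junb had the largest changes among the members. Fos (ENSMUSG00000021250, chr12:85473890-85477273, plus strand), which pairs with Jun proteins, was at 13.9, 6.90, 10.9 and 7.93 CPM in 37 °C replicates 1, 2, 3 and 4, and at 22.3, 24.7, 22.1 and 27.4 CPM in 39 °C replicates 1, 2, 3 and 4. The 39 °C libraries all lay above the 37 °C libraries, among which replicate 1 was highest. The log2 change was 1.28 ± 0.14 (SE, n = 4 and 4, edgeR adjusted p = 1.09e-07), a 2.43-fold higher level. Junb (ENSMUSG00000052837, chr8:84974484-84978718, minus strand), a Jun family subunit known for restraining proliferation in several cell types, was at 189, 168, 187 and 175 CPM at 37 °C and at 418, 388, 395 and 462 CPM at 39 °C. Its replicates were tight and far apart between temperatures, with a log2 change of 1.21 ± 0.06 (edgeR adjusted p = 1.43e-12), or 2.31-fold.

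Fosb (ENSMUSG00000003545, chr7:19302696-19310051, minus strand), a Fos family subunit, was at 7.13, 3.22, 4.45 and 3.44 CPM at 37 °C and at 6.87, 8.48, 9.42 and 9.41 CPM at 39 °C. Its groups overlapped, because 37 °C replicate 1 lay above 39 °C replicate 1, and the log2 change was 0.91 ± 0.17 (edgeR adjusted p = 1.23e-04). Jun (ENSMUSG00000052684, chr4:95049034-95052222, minus strand), the founding Jun subunit and a target of the JNK kinases, was at 94.2, 88.3, 93.5 and 96.9 CPM at 37 °C and at 129, 141, 135 and 128 CPM at 39 °C. The groups did not overlap, and the log2 change of 0.52 ± 0.05 (edgeR adjusted p = 1.38e-08) was smaller than that of Junb. 37 °C replicate 1 was the highest library of its temperature for Fos, Fosb, Junb and Egr1, and for Atf3 as well.

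**Figure D1:**
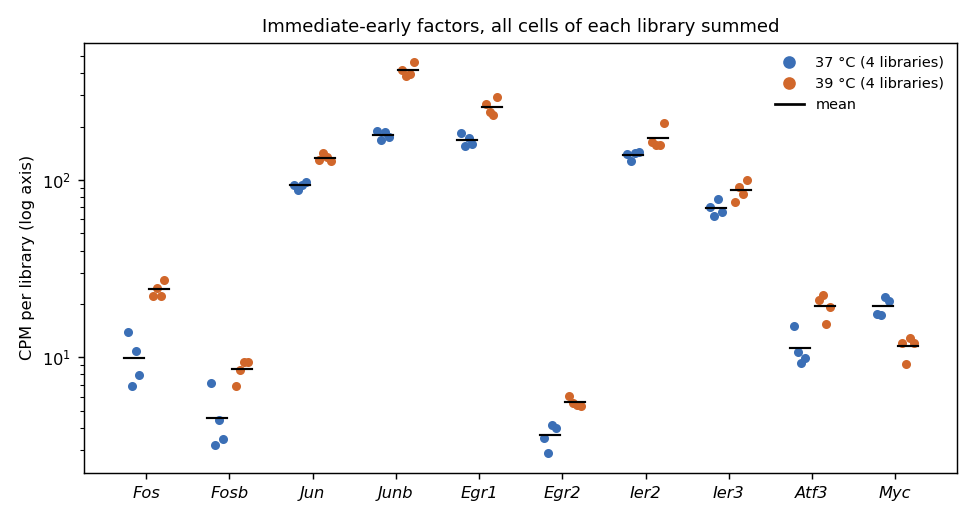
Level of each member in CPM (log axis) in the 4 libraries at 37 °C and the 4 at 39 °C, with all cells of a library summed and black bars at the group means. The groups are separate for 8 members and overlap for Fosb and Ier3, and Myc is the member that is lower at 39 °C.

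Both EGR factors were higher at 39 °C. Egr1 (ENSMUSG00000038418, chr18:34859823-34864984, plus strand), a zinc-finger factor induced by ERK signalling, was at 184, 155, 173 and 159 CPM at 37 °C and at 267, 241, 232 and 293 CPM at 39 °C. No library of one temperature reached the other, and the log2 change was 0.62 ± 0.07 (edgeR adjusted p = 1.68e-07). Egr2 (ENSMUSG00000037868, chr10:67535475-67542188, plus strand), known for its part in hindbrain patterning and myelination, was rare, at 3.50, 2.87, 4.14 and 4.00 CPM at 37 °C and at 6.07, 5.53, 5.38 and 5.32 CPM at 39 °C. It had a log2 change close to that of Egr1, 0.61 ± 0.11 (edgeR adjusted p = 8.06e-05), with groups that did not overlap.

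The changes of Ier2 and Ier3 were the smallest of the 10. Ier2 (ENSMUSG00000053560, chr8:84661331-84662852, minus strand), an immediate-early nuclear regulator of transcription, was at 141, 128, 142 and 144 CPM at 37 °C and at 164, 157, 158 and 209 CPM at 39 °C. The groups did not overlap, but 39 °C replicate 4 stood apart from the other 39 °C libraries, and the log2 change of 0.31 ± 0.07 (edgeR adjusted p = 0.00114) was 0.20 without that library, still called. Ier3 (ENSMUSG00000003541, chr17:35821684-35822923, plus strand), which acts on cell survival and ERK signalling and is not itself a DNA-binding factor, was at 70.7, 62.8, 78.1 and 65.9 CPM at 37 °C and at 75.5, 91.5, 83.3 and 99.7 CPM at 39 °C. Its groups overlapped, with a log2 change of 0.34 ± 0.07 (edgeR adjusted p = 5.88e-04).

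Atf3 (ENSMUSG00000026628, chr1:191170296-191218039, minus strand), a stress-induced factor that binds AP-1 and cAMP response element sites, was at 14.95, 10.8, 9.32 and 9.90 CPM at 37 °C and at 21.2, 22.5, 15.3 and 19.3 CPM at 39 °C. The lowest 39 °C library lay just above the highest 37 °C library, and the log2 change was 0.79 ± 0.12 (edgeR adjusted p = 1.63e-05). Myc (ENSMUSG00000022346, chr15:61985391-61990374, plus strand), which drives ribosome production and cell growth, was at 17.5, 17.3, 22.0 and 20.7 CPM at 37 °C and at 12.1, 9.20, 12.8 and 11.99 CPM at 39 °C. All 39 °C libraries lay below all 37 °C libraries. Its log2 change was -0.75 ± 0.09 (edgeR adjusted p = 9.21e-07), or 1.69-fold higher at 37 °C.

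At 37 °C, libraries differed most in rare members. There the SD of log2 CPM between libraries was 0.51 for Fosb, 0.45 for Fos and 0.30 for Atf3, against a median of 0.11 over all genes tested. Jun, at 0.06 in each temperature, varied less than that median. Ier2 was steady at 37 °C (0.08) and more variable at 39 °C (0.20), where the median over all genes was also 0.11.

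Other genes of the pathway, taken from lists written by hand, are given by counts in the same test of all cells. Of 15 AP-1 and ATF partners, 13 were tested, and 10 were higher and 3 lower (Fosl2, Jdp2 and Batf3), with a median log2 change of 0.31 against 0.02 over all genes. Fosl1, a Fos family subunit, went from 23.9 ± 1.57 to 58.6 ± 5.59 CPM (mean ± SD, n = 4), a log2 change of 1.30 ± 0.07 (edgeR adjusted p = 1.99e-12). The small Maf factors Maff and Mafk, which pair with other leucine zipper proteins, rose by 1.49 ± 0.07 and 0.96 ± 0.07 on the log2 scale. Within G1 cells, 8 of the 13 tested partners were higher and 3 lower, against 24.8% and 22.4% of all genes tested there.

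Of 25 other immediate-early genes, 24 were tested, and 13 were higher, 5 were lower and 6 were not called (median 0.36). Btg2, which restrains proliferation, went from 208 ± 26.4 to 476 ± 46.5 CPM, and the nuclear receptor Nr4a1 from 14.2 ± 2.56 to 32.0 ± 6.03 CPM. The direction was not shared by all, as Klf2, a zinc-finger factor, went from 10.1 ± 1.33 to 3.08 ± 0.40 CPM. The 11 attenuators, genes that dampen the signal or its transcripts, gave 8 higher and 3 lower (median 0.56). Among them the ERK phosphatases Dusp4 and Dusp6 rose by 1.56 ± 0.09 and 1.16 ± 0.06 on the log2 scale, and Zfp36l1, which speeds the decay of transcripts, by 1.05 ± 0.06.

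The 18 upstream kinases and SRF factors had a median log2 change of 0.06, with 7 higher, 6 lower and 5 not called. Mkl2, a partner of SRF, rose by 0.51 ± 0.06 and Mapk9, which encodes the kinase JNK2, by 0.41 ± 0.06, while Srf itself fell by 0.59 ± 0.07 on the log2 scale, from 17.4 ± 1.78 to 11.6 ± 0.68 CPM. The 12 partners of Atf3 in the stress response gave 5 higher and 4 lower. Ddit3 (42.0 ± 1.40 to 87.3 ± 5.52 CPM), a stress factor also called CHOP, and Cebpb (163 ± 12.7 to 286 ± 14.4 CPM) rose, while Asns, the asparagine synthetase, fell (41.8 ± 3.98 to 14.7 ± 0.91 CPM). The 14 heat shock genes gave 2 higher, 8 lower and 4 not called, with Hspd1 falling by 1.24 ± 0.05, Hsph1 by 0.61 ± 0.05 and Dnaja1 by 0.55 ± 0.05 on the log2 scale.

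Around Myc, 11 of 12 genes of its network were tested, with 7 higher and 3 lower. Mxd3, a Max partner that opposes Myc and is known to be made in dividing cells, went from 23.7 ± 2.57 to 1.57 ± 0.08 CPM, while Mxi1 and Mxd1, from the same family, rose by 0.65 ± 0.06 and 0.47 ± 0.06 on the log2 scale. Of 16 MYC targets, 14 were lower, 1 was higher and 1 was not called, with a median of -0.72. Tfrc, the transferrin receptor, went from 25.0 ± 1.14 to 6.80 ± 0.86 CPM, Srm, which makes spermidine, from 61.1 ± 8.46 to 25.2 ± 2.77 CPM, and Nme1 from 524 ± 39.7 to 221 ± 22.0 CPM. Within G1 cells, where Myc was also lower, 11 of these 16 were lower and 2 higher, with a median of -0.38 (0.04 over all genes tested there). The share of G2M cells moved with these values in all cells, and its part was not tested there.

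The same contrast was then made within each phase. In G1 cells, 6 members were higher (Fos, Fosb, Jun, Junb, Egr1 and Atf3), Myc was lower, and 3 were not called, while 24.8% of 14712 genes were higher and 22.4% lower (47.1% in all). In S cells, 5 were higher (Fos, Fosb, Jun, Junb and Egr1), Myc was lower and 4 were not called, against 20.1% of 13740 genes higher and 23.4% lower (43.5% in all). In G2M cells, 8 were higher, with Ier3 and Myc not called, against 13.2% of 13802 genes higher and 16.5% lower (29.7% in all), and the 39 °C values there rest on 29 to 187 cells a library. Fos, Fosb, Jun, Junb and Egr1 were called higher in each of the 3 phases. Groups did not overlap for 6 members in G1, 5 in S and 5 in G2M cells, against 44%, 40.5% and 33.2% of all genes. The study's limit was passed by 2 members in G2M cells, Fosb (1.53 ± 0.32) and Atf3 (1.52 ± 0.28), against 1.96% of genes. Both lie close to it, with Fosb at 1.22 to 1.86 over 20 alternatives and Atf3 at 0.63 without 39 °C replicate 2.

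**Figure D2:**
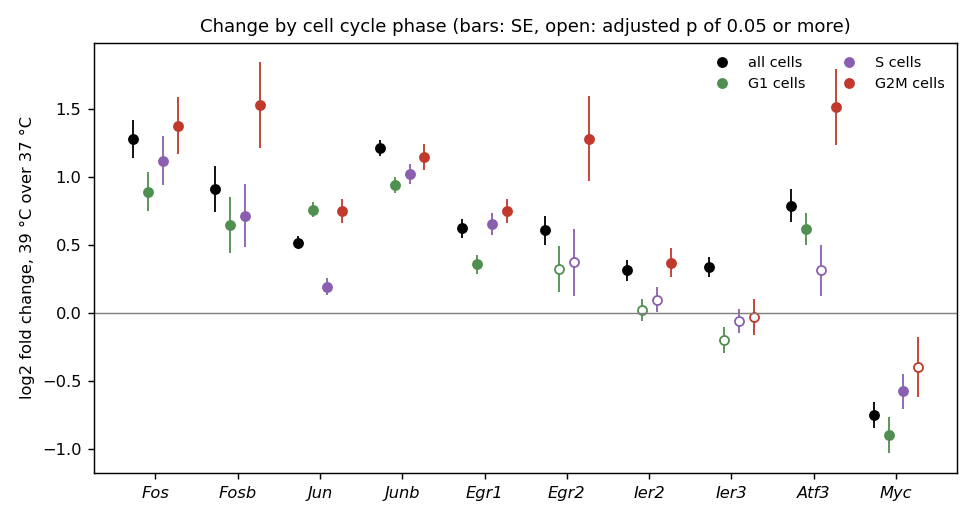
Log2 fold change of 39 °C over 37 °C for each member in all cells and in cells assigned to G1, S and G2M, with bars of 1 SE and open circles where the edgeR adjusted p was 0.05 or more. Junb lies near 1 in every phase, the rare members spread widely in G2M cells, and Ier3 is called in all cells alone, with a direction within phases that flips between alternatives (from -0.27 to 0.06 in G1, -0.19 to 0.42 in S and -0.18 to 0.34 in G2M cells).

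Junb changed by 0.94 ± 0.06 in G1, 1.02 ± 0.07 in S and 1.15 ± 0.10 in G2M cells on the log2 scale, and its groups were separate in each phase. In G1 cells it was at 229, 214, 234 and 230 CPM at 37 °C and at 448, 396, 413 and 484 CPM at 39 °C. Fos changed by 0.89 ± 0.14, 1.12 ± 0.18 and 1.38 ± 0.21 in the same order. Egr1 changed by 0.36 ± 0.07, 0.65 ± 0.08 and 0.75 ± 0.09, the lowest value in G1 cells, where it went from 206 ± 14.4 to 264 ± 29.3 CPM (mean ± SD, n = 4).

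Jun had 0.76 ± 0.06 in G1 and 0.75 ± 0.09 in G2M cells but 0.19 ± 0.06 in S cells (edgeR adjusted p = 0.0116), where it went from 102 ± 3.78 to 117 ± 4.07 CPM. The difference between S and G1 was not tested. Myc had its log2 change of largest size in G1 cells, -0.90 ± 0.13, going from 21.0 ± 4.89 to 11.2 ± 1.66 CPM. In S cells it had -0.58 ± 0.13, and in G2M cells -0.40 ± 0.22 with an adjusted p of 0.188 in edgeR, where adjusted p ranged from 3.94e-05 to 0.754 over 20 alternatives. Without 39 °C replicate 3 the G2M value was -0.88 (edgeR adjusted p = 0.0127), and with phases scored per library it was -0.83.

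Ier2 and Ier3 were higher at 39 °C over all cells but not over G1 cells. Ier3 in G1 cells was at 106, 95.2, 141 and 90.8 CPM at 37 °C and at 81.9, 98.7, 89.2 and 107 CPM at 39 °C. The groups overlapped, and the log2 change was -0.20 ± 0.10 (edgeR adjusted p = 0.0964), and called lower in 3 of 20 alternatives, 2 of them without 37 °C replicate 4 (-0.27) or 39 °C replicate 4 (-0.27). In S cells it was -0.06 ± 0.09 and in G2M cells -0.03 ± 0.13, and with library totals as the scale these became 0.04 and 0.06 (0.0043 in G2M cells with RLE factors). With phases scored in each library apart, however, Ier3 was called higher in S (0.42) and G2M cells (0.34), so its direction within phases depended on how phases were assigned. Ier2 in G1 cells had a log2 change of 0.02 ± 0.08 (edgeR adjusted p = 0.846) and was called in 0 of 20 alternatives. In G2M cells it was higher (0.37 ± 0.11, edgeR adjusted p = 0.00681), but not called without 39 °C replicate 4 (0.30, 0.0685) or with DESeq2 (0.36, 0.0609), where alternatives gave an adjusted p between 8.07e-06 and 0.0685.

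The rare members Fosb, Egr2 and Atf3 had their widest errors within phases. Fosb in G1 cells (0.65 ± 0.21, edgeR adjusted p = 0.0123) lost its call without 37 °C replicate 2 (0.43, edgeR adjusted p = 0.0766), without 37 °C replicate 4 (0.53, 0.0627) and with DESeq2 (0.66, 0.127), where alternatives gave an adjusted p between 1.18e-05 and 0.127. Its call in S cells (0.72 ± 0.23) was lost without 39 °C replicate 2 (0.51, edgeR adjusted p = 0.133). Atf3 in G2M cells was at 16.4, 11.2, 10.1 and 10.7 CPM at 37 °C and at 24.8, 80.2, 15.2 and 20.4 CPM at 39 °C. The high value is 39 °C replicate 2, in which 69 of 92 UMIs lay in 1 of 122 cells. The log2 change was 1.52 ± 0.28 with that library (edgeR adjusted p = 4.58e-05) and 0.63 without it (edgeR adjusted p = 0.0681), where alternatives gave an adjusted p between 1.74e-19 and 0.0681. Egr2 in G2M cells had 1.28 ± 0.31 (edgeR adjusted p = 0.00147), from 1 to 17 UMIs a library at 39 °C, and missed the threshold without 39 °C replicate 3 (0.99, edgeR adjusted p = 0.0596).

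G2M cells were also set against G1 cells of the same library, in a fit with library as a block. At 37 °C, 6 members were lower in G2M cells (Ier3, Ier2, Myc, Fos, Junb and Egr1), Jun was higher and 3 were not called, against 21.6% of 14378 genes higher and 19.6% lower (41.3% in all). At 39 °C, Ier3 was lower, Atf3, Egr1 and Jun were higher and 6 were not called, against 11.7% of genes higher and 14.2% lower (25.9% in all). Of these calls, Fos at 37 °C was lost without 37 °C replicate 1 (-0.32) or 3 (-0.24) and Egr1 without 37 °C replicate 4 (-0.11). The Fos call was also lost without the library block (-0.35), with phases scored per library (-0.20) and with its top cells left out (-0.26). At 39 °C, Atf3 was lost without 39 °C replicate 2 (-0.028), Egr1 without 39 °C replicate 3 (0.13), and Jun without 39 °C replicate 1 (0.13), 39 °C replicate 2 (0.16) or 37 °C replicate 2 (0.16). Also lost there were Atf3 with DESeq2 (0.59), Egr1 without the library block (0.19) and Jun with no filter on low counts (0.17). With the top cell of each gene left out of every sum, an alternative added after seeing the data that takes more from sums of few cells, 0 members were higher at 39 °C and 3 were lower. Jun was then at 0.059 (edgeR adjusted p = 0.585), Egr1 at 0.0975 (0.229) and Atf3 at -0.35 (0.147), while Junb (-0.25, 1.66e-05) and Ier2 (-0.25, 0.00372) were lower beside Ier3. Ier2 was called lower in 8 of 16 alternatives. Ier3 was lower in G2M than in G1 cells in 8 of 8 libraries, with a log2 difference of -0.90 ± 0.05 at 37 °C (edgeR adjusted p = 4.90e-33) and -0.76 ± 0.10 at 39 °C (edgeR adjusted p = 5.47e-11). Its mean level was 109 ± 23.3 CPM in G1 and 58.3 ± 4.75 CPM in G2M cells at 37 °C. Jun was higher in G2M cells in 8 of 8 libraries, by 0.22 ± 0.05 at 37 °C and, with all cells kept, 0.20 ± 0.07 at 39 °C.

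**Figure D3:**
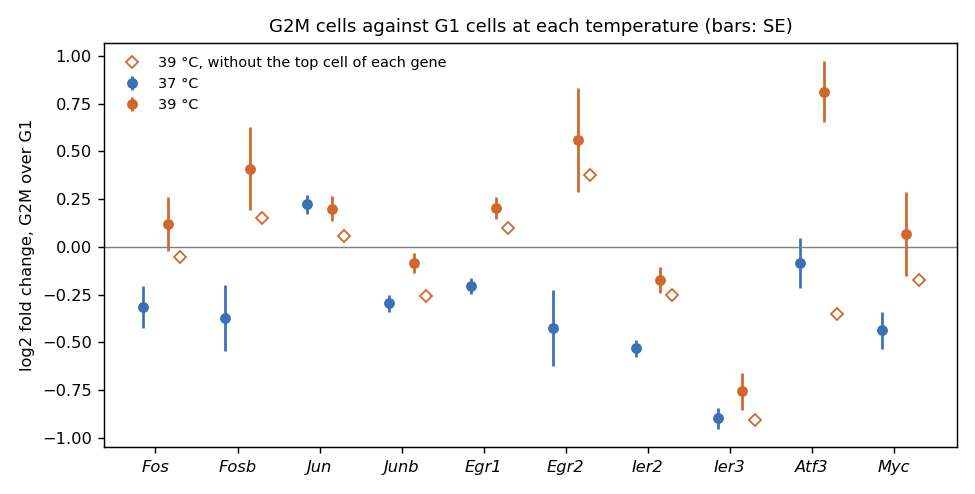
Log2 fold change of G2M cells over G1 cells of the same libraries at 37 °C and 39 °C, with bars of 1 SE. Open diamonds give the 39 °C value with the UMIs of each gene's top cell left out of every sum, which moves Atf3 from 0.81 to -0.35, Jun from 0.20 to 0.059 and Egr1 from 0.20 to 0.0975, with none of the 3 then called.

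The difference between these phase differences was tested as an interaction. It passed for 4 members, Atf3 (0.90 ± 0.20), Egr1 (0.41 ± 0.07), Ier2 (0.36 ± 0.08) and Junb (0.21 ± 0.07), all above 0, against 7.69% of 14378 genes called, 2.46% above 0 and 5.22% below it. Egr1 was lower in G2M cells at 37 °C (-0.21 ± 0.04, above G1 in 1 of 4 libraries) and higher at 39 °C (0.20 ± 0.06, above G1 in 4 of 4), and its interaction had an edgeR adjusted p of 4.74e-06, from 4.34e-10 to 0.0687 over 16 alternatives. Egr1 in G2M cells was at 194, 169, 202 and 154 CPM at 37 °C and at 289, 285, 305 and 320 CPM at 39 °C, with no overlap. Of the 4 members, Atf3 (0.056) and Junb (0.0009) were not called without 39 °C replicate 2, and Junb was not called either without 37 °C replicate 2 (0.17) or 4 (0.18). In G2M cells of 39 °C replicate 2, 127 of 622 Junb UMIs lay in 1 cell. Ier2 was not called without 39 °C replicate 3 (0.24, edgeR adjusted p = 0.127, from 1.45e-08 to 0.326 over its alternatives). With the top cell of each gene left out, 2 members passed, Egr1 (0.30) and Ier2 (0.27). With DESeq2 1 member passed and without the library block 0.

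To compare shares of cells with a transcript, each cell was thinned to 5000 UMIs, leaving out 668 shallower cells at 37 °C and 1668 at 39 °C. In 39 °C replicate 4, 1009 of 3494 kept cells were left out, against 36 of 985 in 39 °C replicate 1. Among the 39 °C libraries, replicate 4 had the highest share for every member but Jun and Atf3. The share of cells with at least 1 UMI of Junb was 51.5, 46.9, 49.7 and 47.7% at 37 °C and 72.8, 69.5, 69.6 and 77.8% at 39 °C. The groups were far apart. Among thinned cells with a Junb UMI, the mean was 1.92 to 1.94 UMIs at 37 °C and 2.84 to 3.03 UMIs at 39 °C. Egr1 was seen in 43.6 ± 2.99% and 53.7 ± 5.37% of cells (mean ± SD, n = 4), Jun in 31.9 ± 1.82% and 42.7 ± 0.89%, and Ier2 in 40.2 ± 1.64% and 46.8 ± 4.74%.

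The rare members were each seen in a small part of the cells. Fos was seen in 4.13 ± 1.02% of cells at 37 °C and 9.73 ± 1.11% at 39 °C, and Atf3 in 4.30 ± 1.02% and 6.92 ± 0.81%. Fosb was seen in 1.93 ± 0.44% and 3.50 ± 0.60%, and Egr2 in 1.81 ± 0.31% and 2.48 ± 0.19%. Myc went the other way, from 7.92 ± 0.82% to 5.16 ± 0.80%. These 9 members each had a two-sided exact permutation p of 0.0286, the smallest that 8 libraries allow. Ier3 (25.0 ± 1.34% and 30.2 ± 3.65%) had an exact permutation p of 0.0571. The smallest p means only that the groups did not overlap, and how many of all genes reach it was not computed. In CPM over all cells, the groups did not overlap for 56.7% of all genes. Shares of cells with a UMI include any free RNA, and the line holds no cell type that lacks these genes to measure it.

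**Figure D4:**
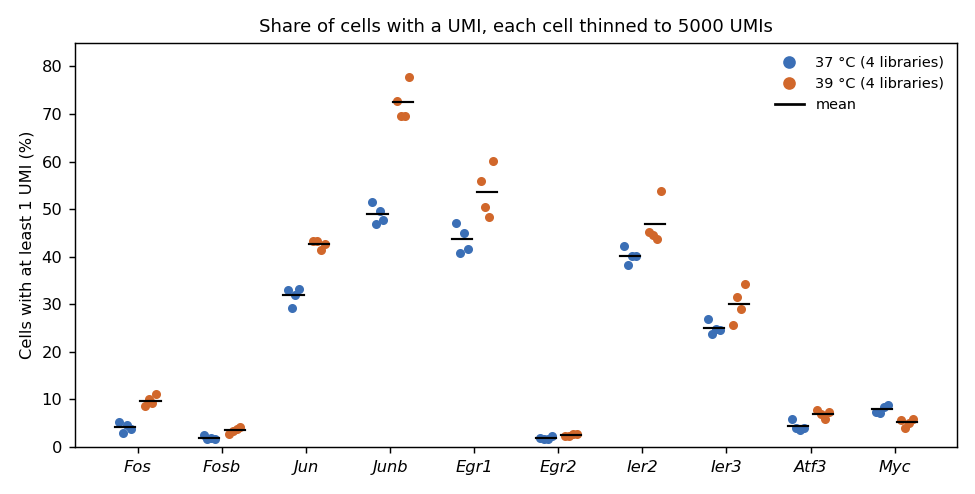
Percent of cells with at least 1 UMI of each member after thinning every cell to 5000 UMIs, in the 4 libraries at 37 °C and the 4 at 39 °C, with black bars at the group means. Junb has the widest gap, from 49.0 to 72.4%, and at this depth the groups overlap for Ier3 alone.

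Without thinning, 2 members had an exact permutation p of 0.0286, and the unthinned means of Junb were 69.0% and 82.2%, of Egr1 58.9% and 63.1%, and of Fos 9.53% and 17.2%. Depth differed between libraries in those values. The number of members seen per thinned cell had a median of 2 in each 37 °C library and 3 in each 39 °C library. Cells with none of the 10 made up 12.2 to 16.5% at 37 °C and 3.82 to 7.17% at 39 °C. Cells with 6 or more made up 1.25 to 1.56% and 2.32 to 3.98%. The 10% of cells richest in members held 31.1 to 32.3% of all member UMIs at 37 °C and 26.0 to 28.8% at 39 °C.

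Co-variation was measured as Pearson's r of log(1 + UMIs) over the thinned cells of 1 library (949 to 2485 cells), and it is a description, since cells of a library share their preparation. Over the 45 pairs of members the median of the mean r was 0.05 at 37 °C and 0.04 at 39 °C, and between members and 7894 other genes the median was -0.000689, with a 99th percentile of 0.0473, over all 8 libraries. Most pairs were thus weak. Junb, Egr1 and Ier2 stood out from the other pairs in every library. Junb and Egr1 had a mean r of 0.38 (0.33 to 0.43 over 8 libraries), Egr1 and Ier2 0.36 (0.34 to 0.39) and Junb and Ier2 0.32 (0.30 to 0.36).

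**Figure D5:**
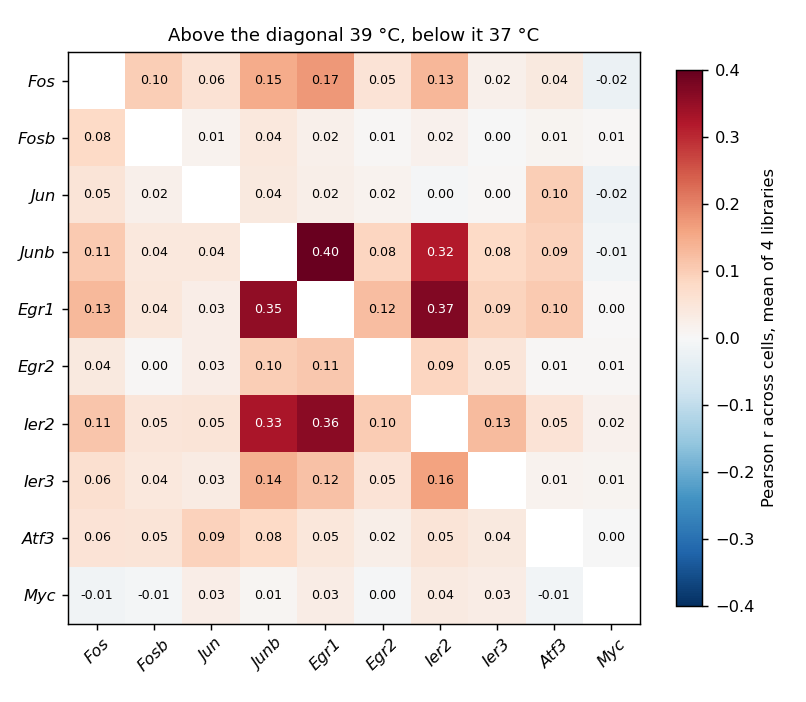
Pearson's r across thinned cells for each pair of members, as the mean of the 4 libraries at 39 °C above the diagonal and of the 4 at 37 °C below it. The block of Junb, Egr1 and Ier2 is the strongest at both temperatures, with 0.35 and 0.40 for Junb with Egr1, and the Myc column is near 0.

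Around these 3 genes, Fos had a mean r of 0.15 with Egr1, 0.13 with Junb and 0.12 with Ier2, above 0 in 8 of 8 libraries each. Egr2, though seen in few cells, had 0.12 with Egr1 and 0.09 with Ier2. Ier3 had its highest value with Ier2 (0.15), and its r with Junb was 0.14 at 37 °C and 0.08 at 39 °C. Jun and Junb, both partners of Fos in AP-1, had an r of 0.04 with each other. Jun had its highest r with Atf3, 0.10 (0.05 to 0.14), and 2 of its 9 r values with members exceeded the 99th percentile of its r with other genes. For Fos this was so for 8 of 9 members, for Junb, Egr1 and Ier2 for 6 each, and for Myc for 0. The other genes behind these percentiles were not matched to the members in level. Common and rare members therefore did not meet the percentiles on equal terms. Myc had its highest r with Ier2 (0.03), and a median of 0.00104 with the other members.

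Sparse counts keep r low for rare genes, so values of common and rare members are not on an equal footing. Each member's log values were centred and scaled to equal spread within a library. Their mean over the members was the member score of a cell, in which rare and common members weigh alike. The member score had an r of -0.11 to -0.01 with the cell's log UMIs before thinning and of -0.07 to 0.05 with its mitochondrial share. With the G2M score the r was -0.13 to -0.07 at 37 °C and -0.02 to 0.05 at 39 °C, and with the S score it was -0.12 to 0.000275 over all libraries.

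The 10 genes outside the list whose log values were most like the member score, by mean r over the 8 libraries, were led by Btg2 (0.26, from 0.22 to 0.28). Phlda1, a growth factor-induced gene, had 0.19, the nuclear receptor Nr4a1 0.17 and the nuclear RNA Neat1 0.17. Cyr61, a matrix protein and known immediate-early gene, had 0.16, and Ptgs2, the inducible cyclooxygenase, 0.15. The cell cycle inhibitor Cdkn1a had 0.15, the EGF family ligand Areg 0.14, the Notch target Hes1 0.14 and Zfp36l2, which speeds the decay of transcripts, 0.13. The r of Nr4a1 was 0.15 at 37 °C and 0.20 at 39 °C, that of Cdkn1a 0.13 and 0.17, and that of Btg2 0.27 and 0.24.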

How the data were processed

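The authors aligned 10x Chromium 3' V3 reads with Cell Ranger 3.0.1 to mm10 (submitters' processing notes) and deposited, per library, whole-number UMI counts per gene and cell, not normalized. The gene annotation used is not given in the sources used here. The study's limits on cells were kept (at most 15% mitochondrial UMIs, 200 to 6000 genes). No doublet caller was run, and an alternative left out the cells of most UMIs, 8 to 98 a library. Phases were assigned with Seurat 5.3.0 over all cells (42 S and 52 G2M genes found, with none of the members among them).

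Counts were summed per library, or per library and phase, genes averaging 1 count or more were kept, and differences were tested in R 4.3.3 by glmQLFit and glmQLFTest of edgeR 4.0.16 after TMM scaling, on temperature, or on phase within temperature with library as a block. Standard errors equal the log2 change over root F. Benjamini-Hochberg adjustment ran over all genes. Cells were thinned in Python 3.11.15, and shares were compared with exact permutation tests over 70 assignments of libraries. Coordinates are from GENCODE M21 (GRCm38). On simulated counts like those of all cells (15810 genes), 59 of 68 genes changed by 0.5 and 63 of 66 changed by 1 on the log2 scale were recovered, with 8 false calls among 15610 unchanged genes. On counts like those of G2M cells (13802 genes) 33 of 68 and 56 of 66 were recovered, and for the interaction (14378 genes) 31 of 68 and 54 of 66.

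The members, lists and naming rule were chosen with earlier results of these data known. Named are the 10 members, up to 3 genes of each list with the largest change in all cells among those with an adjusted p under 0.05 and 10 CPM or more in either group, and the 10 most alike genes among those with at least 0.05 thinned UMIs per cell in each temperature. Fosl2, Jdp2, Batf3 and the markers were named outside that rule, after their values were seen. Alternatives were RLE, upper quartile and totals-only scaling, filterByExpr and no filter, blocking on the replicate number, DESeq2 1.42.0, each library left out, other cell filters (mitochondrial limit of 10%), other phase assignments, and thinning to 2000 or 10000 UMIs. Leaving out each member's top cell was added after seeing the data. Transcripts of the T antigen were not analysed here.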

Additional observations from a re-analysis of the deposited data

Results flagged for a closer look

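In 7 of 80 groups of 4 libraries, 1 member's level stood apart from the other 3 libraries by Dixon's test, where chance flags about 1 in 20 groups. In all cells, Ier2 in 39 °C replicate 4 was at 209 CPM against 157 to 164 CPM in the other 39 °C libraries. In G1 cells, Myc in 39 °C replicate 2 was at 8.72 CPM against 11.8 to 12.2. In S cells, Fosb in 39 °C replicate 2 was at 10.5 CPM against 6.44 to 6.88, Egr1 in 39 °C replicate 4 at 276 CPM against 199 to 212, and Ier3 in 37 °C replicate 2 at 57.1 CPM against 62.3 to 62.9. In G2M cells, Ier2 in 39 °C replicate 1 was at 82.5 CPM against 164 to 180, from 40 UMIs in 29 cells, and Atf3 in 39 °C replicate 2 at 80.2 CPM against 15.2 to 24.8, from 92 UMIs of which 69 were in 1 cell.

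The difference between G2M and G1 cells differed between temperatures by the interaction test for 4 members. The signed value of G2M over G1 was higher at 39 °C by 0.90 for Atf3 (from -0.08 to 0.81), 0.41 for Egr1 (from -0.21 to 0.20), 0.36 for Ier2 (from -0.53 to -0.17) and 0.21 for Junb (from -0.30 to -0.08) on the log2 scale. Egr1 kept its call in 15 of 16 alternatives, Ier2 in 13, Atf3 in 12 and Junb in 9.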

How the results depend on the processing

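The call and direction of all 10 members in all cells held under each of 20 alternatives, with each library left out included. Within phases the count of called members was 7 in G1 cells (6 to 8 with a library left out), 6 in S cells (5 to 7) and 8 in G2M cells (7 to 8). With phases scored per library all 10 were called in S cells, 9 higher and 1 lower. Calls over all genes also became more common there. Of 13947 genes, 3971 were higher and 3997 lower, against 2761 and 3213 of 13740 with the main phases. G2M against G1 gave 7 called members at 37 °C (6 to 8) and 4 at 39 °C (3 to 5). The count at 39 °C hides a change of genes, since 3 members were higher and 1 lower, but 0 were higher and 3 lower without the top cell of each member, and 1 higher and 3 lower without 39 °C replicate 2. The interaction, with 4 called, gave 2 without the top cell of each member, 1 with DESeq2, 0 without the replicate block (paired by library) and 2 to 6 with a library left out. The cause was not tested.

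Reversed were Ier3 in S cells (0.42) and in G2M cells (0.34), and Junb in G2M against G1 cells at 39 °C (0.11), with phases scored per library. Atf3 at 39 °C in G2M against G1 cells became -0.35 without its top cells and -0.028 to 1.07 with a library left out (-0.028 without 39 °C replicate 2), and its interaction became -0.03 without its top cells. The count of members whose share of cells passed was 9, with no such count made over all genes. It became 2 without thinning and 4 to 8 with a library left out. There, 7 libraries can give an exact permutation p of 0.0571 to groups that do not overlap, so that these counts say nothing of stability. Which members passed also changed with the depth of thinning. Ier3 had an exact permutation p of 0.0286 at both 2000 and 10000 UMIs per cell. Fosb and Egr1 at 10000 UMIs, and Atf3 and Myc at 2000 UMIs, had an exact permutation p of 0.0571. Median r at 37 °C (0.0487) became 0.0253 at 2000 UMIs per cell, 0.0736 without thinning and 0.0394 in G1 cells alone, and 0.0433 to 0.0511 with a library left out. Median r at 39 °C (0.0382) became 0.0228 at 2000 UMIs per cell and 0.0197 as Spearman's rho, and 0.0268 to 0.0400 with a library left out.

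Replicate numbers did not pair the libraries of both temperatures (correlations of deviations -0.034 to 0.050 for equal numbers), and with the number as a replicate block the counts of called members were 10, 7, 6 and 8 in all, G1, S and G2M cells, as without it. Over all genes, calls in G2M cells went from 4101 to 7347 with phases scored per library, and interaction calls from 1105 to 458 with DESeq2, 388 without the replicate block and 2296 with phases scored per library. The share of calls that were higher moved with scaling from 46.2 to 59.4% in S cells, from 44.4 to 57.8% in G2M cells, from 45.3 to 58.8% in G2M against G1 cells at 39 °C and from 32.0 to 72.8% (57.6% with RLE factors) in the interaction, with library totals as the scale. There the median of all genes moved from -0.07 to 0.04. The G2M values at 39 °C rest on 29 to 187 cells and 449856 to 1483712 UMIs a library, with as few as 1 UMI of a rare member.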
